A study of Homo sapiens with 12 samples.

Results

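The MAX network is described here through 9 genes, MYC, MAX, MXD1, MXD3, MXD4, MXI1, MNT, MLX and MGA, chosen by symbol, out of 18239 genes that had a probe set of their own on the array. Each gene was read from the probe set with the highest mean over 12 arrays, and its other probe sets served as a check. All 9 passed the filter on low values, as did 13120 genes in all. The 9 genes had 39 probe sets, from 12 for MAX to 1 for MYC.

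RNA came from 3 established human lymphoma lines, OCI-LY3, OCI-HBL1 and OCI-LY10, of the ABC-DLBCL type, the activated B cell form of diffuse large B cell lymphoma, taken in exponential growth. Combo cells received 500 nM CPI203, which blocks the bromodomains of BET chromatin readers, and 50 µM of an IRAK inhibitor (IRAKi, chemical identity not stated), and were labelled 24 h. CPI203 cells received 500 nM CPI203 alone, labelled 24 h, IRAKi cells received 50 µM of the IRAK inhibitor alone, labelled 6 h, and Control cells are labelled 24 h with no drug or vehicle named. The treatment protocol gives 18 h for CPI203 and 6 h for IRAKi, so treatment and label time cannot be told apart wherever IRAKi alone is compared. Each group held 3 arrays, 1 per line, so the line is the replicate. The line is a term in the fit, so p-values rest on how treatment changes vary between these lines, not on differences in level. Values are log2 RMA signals (RMA is a background correction, quantile normalization and probe set summary), and a gene was called at a limma adjusted p below 0.05.

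MYC is a basic helix-loop-helix leucine zipper transcription factor that binds the E-box sequence CACGTG only as a dimer with MAX, and it drives growth, ribosome production and nucleotide synthesis. MXD1, MXD3, MXD4, MXI1, MNT and MGA pair with the same MAX and turn E-box genes down, the MXD proteins through the SIN3-HDAC corepressor and MGA through a Polycomb complex, PRC1.6. MLX is a MAX-like protein that pairs with some MXD proteins, with MNT, and with the glucose-sensing factors MLXIP and MLXIPL. In many cell types MYC is high in dividing cells while MXD genes come up as cells stop dividing, and ABC-DLBCL cells, like other aggressive B cell lymphomas, often rely on MYC.

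The network's factors bind E-boxes, so the 250 bases before the RefSeq start of member genes (GRCh38.p14) were searched for CACGTG, whose 2 strands read alike. The promoter table held 8 of the 9 genes, with 13 start sites. CACGTG was present before MXD4, MNT and MLX, 3 of 8 genes, against 7.73% of 27305 genes in the table. It was absent from the windows of MAX, MXD1, MXD3, MXI1 and MGA. The windows of MXD4, MNT and MLX held 70.4%, 78% and 71.2% G and C, against 55.6% to 76.4% in the other member windows. The share over all genes was not matched for G and C content, and the difference from it was not tested. The 4 windows below are those of the members that were called in a comparison and have a single start in the table. Capitals mark the E-box.
MXD1 (chr2:69914859-69915108, plus strand): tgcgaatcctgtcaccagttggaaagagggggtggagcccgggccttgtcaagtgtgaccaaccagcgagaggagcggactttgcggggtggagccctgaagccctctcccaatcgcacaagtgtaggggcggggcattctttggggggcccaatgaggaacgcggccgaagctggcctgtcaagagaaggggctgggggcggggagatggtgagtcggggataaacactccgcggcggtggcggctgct
MXD3 (chr5:177312753-177313002, minus strand): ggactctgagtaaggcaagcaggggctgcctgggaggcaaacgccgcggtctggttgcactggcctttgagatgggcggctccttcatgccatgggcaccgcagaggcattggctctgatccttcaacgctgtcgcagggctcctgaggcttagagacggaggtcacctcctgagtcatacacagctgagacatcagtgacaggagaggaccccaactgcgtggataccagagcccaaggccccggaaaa
MXD4 (chr4:2262110-2262359, minus strand): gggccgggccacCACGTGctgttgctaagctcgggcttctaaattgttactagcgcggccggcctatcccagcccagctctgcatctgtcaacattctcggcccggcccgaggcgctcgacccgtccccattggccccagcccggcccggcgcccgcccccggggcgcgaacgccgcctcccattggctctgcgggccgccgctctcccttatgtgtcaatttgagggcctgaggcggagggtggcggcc
MLX (chr17:42566850-42567099, plus strand): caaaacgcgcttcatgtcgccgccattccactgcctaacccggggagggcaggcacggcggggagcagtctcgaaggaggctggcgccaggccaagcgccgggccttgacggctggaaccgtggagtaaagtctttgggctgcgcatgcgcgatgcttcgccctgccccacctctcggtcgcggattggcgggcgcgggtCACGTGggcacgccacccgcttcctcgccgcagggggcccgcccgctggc
The E-box began 238 bases before the start of MXD4 and 50 bases before that of MLX. A match describes the letters of a window and is not a measured binding site.

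Of 8 B cell markers 7 were analysed here and all 7 passed the filter, while of 11 measured markers of other cell types CD3D, CD14, LYZ, CSF1R and COL1A1 did not pass it and 6 did. Of those 6, EPCAM stood at 6.92 and PECAM1 at 7.39 in OCI-HBL1 Control cells. Array medians lay between 4.64 and 4.73. Poly-A spike-in controls, RNA added to each sample, read higher than Control by 0.48 ± 0.26 with Combo, 0.31 ± 0.17 with CPI203 and 0.23 ± 0.04 with IRAKi (log2, SD, n = 3). Scaling arrays to these controls moves the median gene by -0.49 for Combo, -0.30 for CPI203 and -0.23 for IRAKi against Control, and changes are given on the scale of the deposited values, where the median gene's change is -0.0031, 0.0081 and -0.0007. Control probe sets with no target averaged 4.00 on the array of IRAKi-treated OCI-LY10 cells, against 3.64 to 3.79 elsewhere.

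With both inhibitors, MYC RNA was lower and 3 of the 4 MXD-type repressor genes (MXD1, MXD3 and MXI1) were higher than in Control. With all probe sets of a gene averaged in place of the highest, MXI1 was not called (0.32, adjusted p = 0.0766), MXD4 was (0.58, adjusted p = 0.00754), and 6 members were called in place of 5. In all, 5 of 9 members were called in Combo against Control, 3 risen and 2 fallen, where 32.1% of all genes were called, 15.4% higher and 16.7% lower. On the poly-A scale 3 of 9 members were called, MXD1 higher and MYC and MLX lower, where 46.9% of all genes were called, 3.91% higher and 43% lower. The median log2 change of the 9 members was 0.35, beside -0.0031 over all genes. Arrays did not overlap between Combo and Control for 4 of the 9, MYC, MXD1, MXD3 and MLX, as for 19.1% of all genes, between CPI203 and Control for 3, MXD1, MXD3 and MLX (11.5% of all genes), and between IRAKi and Control for none (5.26%). MAX, the shared partner, did not pass the test.

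**Figure D1:**
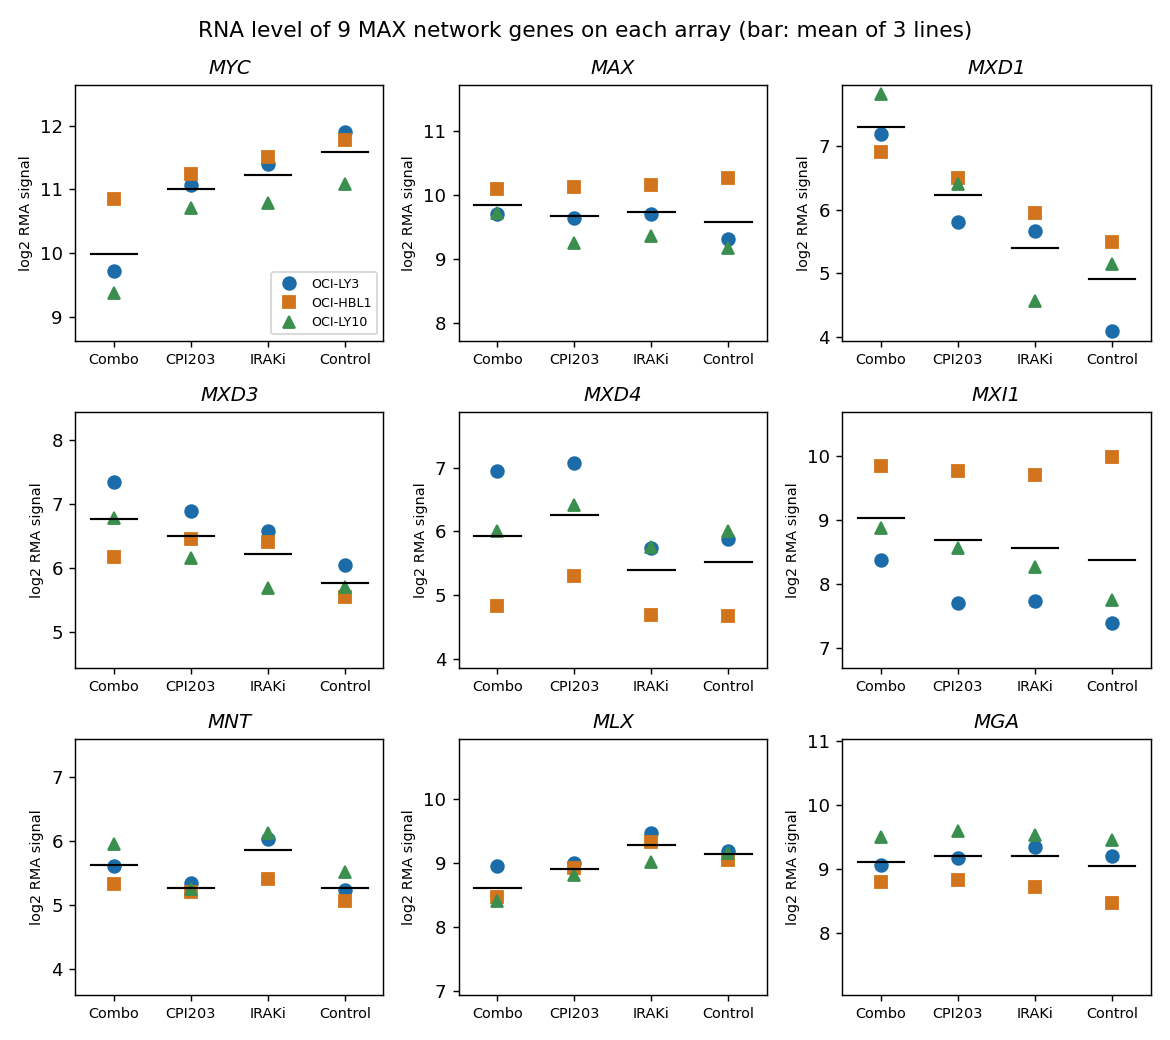
Log2 RMA signal of each member (y axis, the same span in every panel) on every array, by treatment (x axis), with a symbol for each line and a bar at the mean of 3 lines. MYC is lowest and MXD1 highest with Combo in every line, and for MGA the 3 lines do not overlap.

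MYC was measured by 1 probe set. With Combo its log2 level was 9.73 in OCI-LY3, 10.85 in OCI-HBL1 cells and 9.37 in OCI-LY10. With CPI203 it was 11.07, 11.25 and 10.71 in the same lines, with IRAKi 11.39, 11.51 and 10.78, and in Control 11.90, 11.77 and 11.08. Every Combo array was below every Control array, and in each line the order was Combo, CPI203, IRAKi, Control from low to high. Arrays of CPI203 and IRAKi overlapped with those of Control, and OCI-LY10 had less MYC signal than the other lines under every treatment.

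MYC fell by 1.598 on the log2 scale with Combo (SE 0.21, n = 3, limma adjusted p = 0.000593), to 0.330 of its Control signal. The change was -2.17 in OCI-LY3, -0.92 in OCI-HBL1 cells and -1.71 in OCI-LY10. With CPI203 alone the change was -0.57 ± 0.21 (SE, limma adjusted p = 0.11), lower in 3 of 3 lines and not past the test. With IRAKi alone it was -0.35 ± 0.21 (limma adjusted p = 0.475), again lower in 3 of 3 lines and not past the test. The call for Combo against Control held without each line in turn, with adjusted p between 0.00202 and 0.0189.

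MYC was also lower in Combo than with either drug alone. The log2 change relative to CPI203 was -1.03 ± 0.21 (limma adjusted p = 0.0311), and relative to IRAKi it was -1.24 ± 0.21 (limma adjusted p = 0.00447). The step from CPI203 to Combo was -1.34 in OCI-LY3 and in OCI-LY10 and -0.40 in OCI-HBL1. That step was not called when any line was left out, with an adjusted p of 0.222 when OCI-LY3, 0.0686 when OCI-HBL1 and 0.268 when OCI-LY10 was removed. In Combo against CPI203 these fits called 0, 3 and 0 of all 13120 genes, beside 612 with every line kept. The step from IRAKi was called without OCI-HBL1 (adjusted p = 0.00857) but not without OCI-LY3 (0.0671) or OCI-LY10 (0.068).

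The sum of the changes with each drug alone can be set beside the joint change of MYC in each line. The joint change in OCI-LY3 was -2.17 and the sum -1.34. They were -1.71 and -0.66 in OCI-LY10, against -0.92 and -0.78 in OCI-HBL1. The departure from the sum, over 3 lines, was -0.67 ± 0.30 and did not pass the test (limma adjusted p = 0.603). None of the 9 members was called for this departure, for which limma called 0.00762% of all genes, 1 of 13120, and gave 1085 genes an unadjusted p below 0.05.

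**Figure D2:**
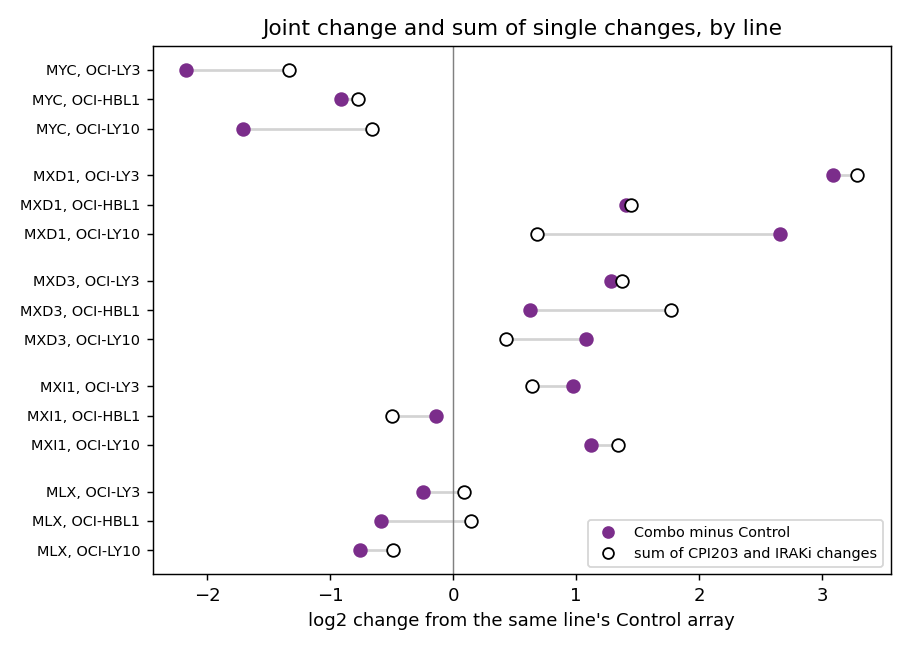
Log2 change from the same line's Control array (x axis) for Combo (filled) and for the sum of the CPI203 and IRAKi changes (open), for the 5 members called in Combo against Control, by line (y axis, 1 array per point or term). For MYC the filled point lies left of the open one in all 3 lines, by 0.14 in OCI-HBL1 and by 0.84 and 1.04 in OCI-LY3 and OCI-LY10.

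MAX is the obligate partner of MYC and of the MXD proteins. Its log2 level with Combo was 9.71 in OCI-LY3, 10.11 in OCI-HBL1 cells and 9.73 in OCI-LY10, against 9.31, 10.27 and 9.18 in Control. OCI-HBL1 was above the other lines under all treatments, and the groups overlapped. The change with Combo was 0.26 ± 0.15 (limma adjusted p = 0.219), with a 95% confidence interval of -0.07 to 0.59. With CPI203 it was 0.09 and with IRAKi 0.16. All 11 tested MAX probe sets had a change above 0 with Combo, between 0.07 and 0.28, and none was called. Scaled to the poly-A spike-ins the change of MAX with Combo was -0.23, so its sign depends on the scale.

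MXD1, also known as MAD1, encodes the founding MXD repressor. With Combo its log2 level was 7.19 in OCI-LY3, 6.90 in OCI-HBL1 cells and 7.80 in OCI-LY10, against 4.10, 5.49 and 5.14 in Control. CPI203 arrays stood between, at 5.81, 6.50 and 6.40, and IRAKi arrays at 5.67, 5.94 and 4.58. The Combo arrays were above all other arrays, and the CPI203 arrays were above all Control arrays.

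MXD1 rose by 2.38 ± 0.41 with Combo (log2 change ± SE, n = 3, limma adjusted p = 0.00195), 5.22 times its Control signal. Its Control level in OCI-LY3 was below the filter level of 4.20, near the array background. The call held without each line in turn, with changes between 2.03 and 2.87, and the change was 1.90 when scaled to the poly-A spike-ins. A second MXD1 probe set, with a mean level of 3.94, did not pass the filter, and the mean of both gave a change of 1.42 (adjusted p = 0.00234). With CPI203 the change was 1.32 ± 0.41, higher in 3 of 3 lines but not past the test (limma adjusted p = 0.0597), and it passed under 6 of 15 alternative settings. With IRAKi it was 0.48 ± 0.41 (limma adjusted p = 0.627), with opposite signs between lines, 1.57 in OCI-LY3, 0.45 in OCI-HBL1 cells and -0.57 in OCI-LY10. That OCI-LY10 array is the one with high non-target control signals, whose part in the value was not tested. Combo exceeded IRAKi by 1.90 ± 0.41 (limma adjusted p = 0.0115) and CPI203 by 1.06 ± 0.41, the second of which did not pass (limma adjusted p = 0.174). The call against IRAKi held with OCI-HBL1 removed (adjusted p = 0.028) but not with OCI-LY3 (0.0593) or OCI-LY10 (0.0952) removed.

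MXD3 encodes an MXD protein that, unlike its relatives, is often found in dividing cells. Its log2 level with Combo was 7.34 in OCI-LY3, 6.17 in OCI-HBL1 cells and 6.79 in OCI-LY10, against 6.05, 5.54 and 5.71 in Control, so the groups did not overlap. It rose by 1.00 ± 0.22 (limma adjusted p = 0.00672), higher in 3 of 3 lines. With OCI-LY3 removed the adjusted p was 0.113, and scaled to the poly-A spike-ins the change was 0.51 (adjusted p = 0.0628). With CPI203 the change was 0.73 ± 0.22 (limma adjusted p = 0.0544), and it passed under 6 of 15 alternative settings, with IRAKi 0.46 ± 0.22 (limma adjusted p = 0.359). In OCI-HBL1 the Combo level was below the CPI203 level of 6.45 and the IRAKi level of 6.40, while in OCI-LY3 and OCI-LY10 Combo was the highest. The other 2 MXD3 probe sets, at mean levels of 4.30 and 4.16 and so near the filter level, had changes of 0.23 and 0.06 with Combo and were not called. The mean of the 3 probe sets gave 0.43 with Combo (adjusted p = 0.0286) and 0.19 with CPI203 (adjusted p = 0.374).

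MXI1, also known as MXD2, encodes an MXD-type repressor, and its RNA differed between lines. OCI-HBL1 held between 9.70 and 9.98 over its 4 arrays, against 7.39 to 8.37 in OCI-LY3 and 7.75 to 8.87 in OCI-LY10. With Combo MXI1 stood at 8.37 in OCI-LY3, 9.84 in OCI-HBL1 cells and 8.87 in OCI-LY10, against 7.39, 9.98 and 7.75 in Control. It was higher with Combo in the lines that started low, by 0.98 in OCI-LY3 and 1.12 in OCI-LY10, and the change was -0.14 in OCI-HBL1. Over 3 lines it rose by 0.65 ± 0.22 (limma adjusted p = 0.0441). Removal of OCI-LY3 (adjusted p = 0.311) or OCI-LY10 (0.305) ended this call, removal of OCI-HBL1 kept it (0.00716, change 1.05), and on the poly-A scale the change was 0.17 and not called. With no filter on low values the adjusted p was 0.0507. The other 3 tested MXI1 probe sets disagreed, with changes of 0.72, 0.17 and -0.01 with Combo. The first of these was called with Combo and, at 0.91, with CPI203 (adjusted p = 0.00424 and 0.00599 over all probe sets), and the other 2 were not.

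MXD4 encodes the remaining MXD repressor and was the member called with CPI203. Its log2 level with CPI203 was 7.06 in OCI-LY3, 5.30 in OCI-HBL1 cells and 6.41 in OCI-LY10, against 5.87, 4.67 and 6.00 in Control, so the ranges overlapped but each line was higher with CPI203. The rise was 0.74 ± 0.21 (limma adjusted p = 0.0468). It was the only 1 of 9 members called in CPI203 against Control, where 13.1% of all genes were called, 6.92% higher and 6.21% lower. The call was lost without each line in turn, with adjusted p between 0.128 and 0.153, and on the poly-A scale, where the change was 0.44. With Combo the chosen probe set stood at 6.94, 4.84 and 6.00, a change of 0.41 ± 0.21 (limma adjusted p = 0.173). The 5 MXD4 probe sets all had changes above 0 with Combo, and 2 of them were called, at 0.59 and 1.06 (adjusted p = 0.0295 and 0.0196). In that test over all probe sets the chosen one was not called with CPI203 (adjusted p = 0.0514), and another was, at 0.63 (adjusted p = 0.0381). With IRAKi the change of MXD4 was -0.12 ± 0.21 (limma adjusted p = 0.847).

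**Figure D3:**
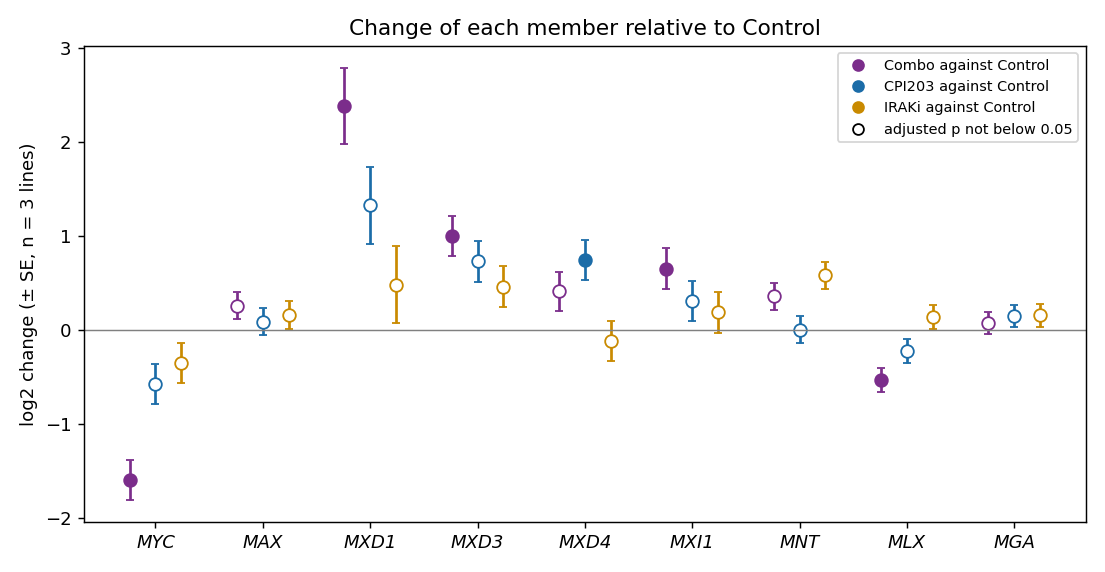
Log2 change relative to Control (y axis, ± SE, n = 3 lines) of each member (x axis) with Combo, CPI203 and IRAKi (colours, left to right), with filled points past the test. Combo gives filled points below 0 for MYC (-1.598) and MLX (-0.53) and above 0 for MXD1, MXD3 and MXI1, the filled CPI203 point is MXD4 (0.74), and every IRAKi point is open. All 3 comparisons share the Control arrays.

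MNT encodes a repressor present in most cells, dividing or not. Its log2 level with IRAKi was 6.02 in OCI-LY3, 5.41 in OCI-HBL1 cells and 6.12 in OCI-LY10, against 5.24, 5.06 and 5.51 in Control. With IRAKi it was higher in 3 of 3 lines, by 0.58 ± 0.14, and did not pass the test (limma adjusted p = 0.12, and 0.0761 to 1 over 15 alternatives). With CPI203 the change was 0.00 ± 0.14 and with Combo 0.35 ± 0.14 (limma adjusted p = 0.0878). None of the 9 members was called in IRAKi against Control, where limma called 0.168% of all genes, 0.114% higher and 0.0534% lower, and gave 2018 of them an unadjusted p below 0.05. MNT had the lowest unadjusted p of the 9 in that comparison, 0.00241, and was singled out after its values were seen.

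MLX is the centre of the sister branch of the network. With Combo its log2 level was 8.94 in OCI-LY3, 8.47 in OCI-HBL1 cells and 8.40 in OCI-LY10, against 9.19, 9.05 and 9.16 in Control, with no overlap. With IRAKi it was 9.47, 9.33 and 9.01. MLX fell by 0.53 with Combo relative to Control (SE 0.13, limma adjusted p = 0.0115) and by 0.67 relative to IRAKi (SE 0.13, limma adjusted p = 0.0075). All 6 MLX probe sets were called lower in Combo against Control when each probe set was tested on its own, with changes from -0.78 to -0.48. The call against Control ended when OCI-HBL1 (adjusted p = 0.0772) or OCI-LY10 (0.121) was removed, and that against IRAKi when any line was (adjusted p between 0.0558 and 0.0802). With CPI203 alone the change was -0.22 ± 0.13 (limma adjusted p = 0.294). Another MLX probe set, at a mean level of 4.74, was called lower with CPI203, at -0.60 (limma adjusted p = 0.0372 over all probe sets). In Combo against CPI203 the chosen probe set was not called, at -0.31 (limma adjusted p = 0.213). The probe set next to it in level was called, at -0.56 (adjusted p = 0.0392 over all probe sets). On the poly-A scale the change of MLX with Combo was -1.01.

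MGA is a large repressor that carries a second DNA-binding domain, a T-box, and scaffolds PRC1.6. Its highest probe set ordered the lines without overlap over all 4 treatments, from 8.47 to 8.82 in OCI-HBL1, 9.05 to 9.34 in OCI-LY3 and 9.46 to 9.58 in OCI-LY10. The lines are 1 source each, so this order has no test. Its change with Combo was 0.07 ± 0.12 (limma adjusted p = 0.702). The next MGA probe set disagreed, with a change of -0.62 that was called when probe sets were tested separately (adjusted p = 0.0307), and the third stood at -0.57 (adjusted p = 0.109). The mean of the 3 probe sets gave -0.38 (adjusted p = 0.0469), so the direction of MGA RNA depends on the probe set.

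**Figure D4:**
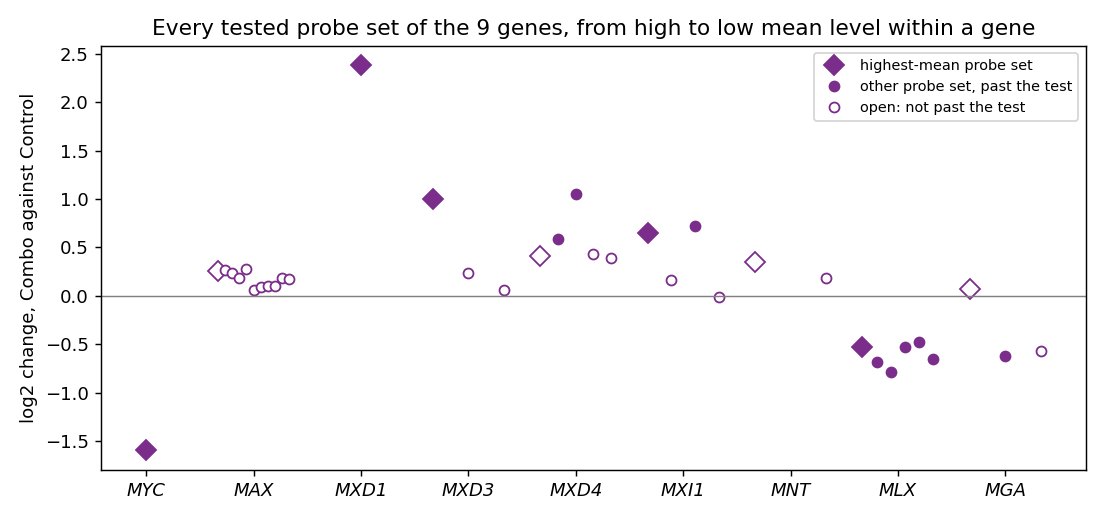
Log2 change in Combo against Control (y axis) for every tested probe set of the 9 genes (x axis, high to low mean level within a gene), with diamonds for the highest-mean probe set and filled symbols past the test over all probe sets. The 6 MLX points lie together between -0.78 and -0.48, the MAX points between 0.07 and 0.28, and the MGA points on either side of 0.

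Read from their chosen probe sets, the 5 members called in Combo against Control were not called with either drug alone. MXD1 and MXD3 passed with CPI203 under 6 alternative settings each and MYC under 1, and other probe sets of MLX and MXI1 were called with CPI203. The differences between treatments passed their own test against both drugs for MYC, against IRAKi alone for MXD1 and MLX, and against neither for MXD3 and MXI1. Under 1 alternative setting each, MLX passed against CPI203 and MXD3 against IRAKi. In Combo against CPI203, MYC was the 1 member called, where 4.66% of all genes were called, 1.96% higher and 2.71% lower. In Combo against IRAKi 3 of 9 were called, MYC and MLX lower and MXD1 higher, where 18.7% of all genes were called, 10.5% lower and 8.21% higher.

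Genes that MYC is known to activate were then counted from a list of 36, of which 34 were tested. With Combo 14 fell, 2 rose and 18 did not pass, with a median change of -0.25, beside -0.0031 over all genes, of which 16.7% were called lower and 15.4% higher. On the poly-A scale 30 fell and none rose (median -0.73), beside 43% of all genes lower and 3.91% higher (median -0.49). SLC19A1, the reduced folate carrier, stood at 6.34, 5.17 and 5.39 in OCI-HBL1, OCI-LY10 and OCI-LY3 with Combo, against 8.26, 7.13 and 7.82 in Control. It fell by 2.10 (SE 0.19, limma adjusted p = 0.000109). E2F2, a cell cycle transcription factor, fell by 1.53 (SE 0.25) and RRS1, a ribosome assembly factor, by 1.37 (SE 0.11), and these 3 calls held without each line. The 2 that rose were IMPDH2, a guanine nucleotide synthesis enzyme, at 0.41 ± 0.10 and ODC1, the polyamine synthesis enzyme, at 0.29 ± 0.10. Each of these calls was lost without each line in turn, and both had changes below 0 on the poly-A scale, -0.08 and -0.19.

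Many abundant growth genes on that list did not pass with Combo, while other abundant ones were called lower. The nucleolar protein genes NCL, NPM1 and FBL had changes of -0.09, -0.03 and -0.04, and the glycolytic gene LDHA -0.18. These genes were named after their values were seen and do not stand for all abundant genes of the list. DKC1, CDK4 and NOP16, with mean Control levels of 12.2, 11.2 and 11.1, had changes of -0.71, -0.91 and -1.13. Their calls held without each line. With CPI203 alone 8 of the 34 fell and none rose (median -0.24), beside 6.21% of all genes called lower and 6.92% higher. With IRAKi none passed (median -0.15), beside 0.168% of all genes called. With CPI203, 2 of the 34 were called when OCI-LY3 was removed, 3 when OCI-HBL1 was removed and 0 when OCI-LY10 was removed. The 8 include SLC19A1 at -1.34, lost without OCI-LY10 (adjusted p = 0.0533), and E2F2 at -1.04, lost without OCI-HBL1 (0.133) or OCI-LY10 (0.208). In Combo against CPI203 4 fell, beside 2.71% of all genes called lower, and in Combo against IRAKi 11 fell, beside 10.5%. Over the fits that leave out a line, between 10 and 13 of the 34 were called with Combo.

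Among 10 genes that MYC is known to repress, 7 were tested, while CDKN2B, CEBPA and CLU were below the filter. With Combo 3 of the 7 rose and none fell (median 0.76), beside 32.1% of all genes called. On the poly-A scale 1 rose and none fell, beside 3.91% of all genes called higher and 43% lower. GADD45A, a growth arrest gene, stood at 7.25, 10.13 and 9.40 in OCI-HBL1, OCI-LY10 and OCI-LY3 with Combo, against 4.90, 8.96 and 7.35 in Control. It rose by 1.86 ± 0.21 (limma adjusted p = 0.000285), and by 0.86 ± 0.21 with CPI203 (limma adjusted p = 0.0277), the second call lost without OCI-LY3 (0.153) or OCI-HBL1 (0.179). CDKN1A, which encodes the cell cycle inhibitor p21, rose by 0.76 ± 0.21 (limma adjusted p = 0.0231) and DDIT3, the stress factor CHOP, by 0.76 ± 0.25 (limma adjusted p = 0.0433), but neither was called in any fit that left out a line.

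Among the 12 MYC coactivator genes 3 fell, 1 rose and 8 did not pass with Combo (median -0.26), so 33.3% were called beside 32.1% of all genes. Scaled to the poly-A spike-ins 9 fell and none rose, beside 46.9% of all genes called. Without OCI-LY3 or without OCI-LY10 2 of the 12 were called. KAT5, the TIP60 acetyltransferase, fell by 1.47 (SE 0.17, limma adjusted p = 0.000312) and already with CPI203 by 0.89 (SE 0.17, limma adjusted p = 0.0121), the second call lost without OCI-HBL1 (0.0847) or OCI-LY10 (0.119). TRRAP, the scaffold of the acetyltransferase complexes that MYC recruits, fell by 0.76 (SE 0.12, limma adjusted p = 0.00133). RUVBL1, an ATPase of the same complexes, fell by 0.61 (SE 0.13), and BPTF, a chromatin remodelling subunit, rose by 0.49 ± 0.12. Neither RUVBL1 nor BPTF was called with OCI-LY3 removed (adjusted p = 0.107 and 0.148) or with OCI-LY10 removed (0.0919 and 0.0784), and BPTF stood at 0.0036 on the poly-A scale.

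The SIN3-HDAC corepressor is the complex through which MXD proteins act. Of its 11 tested genes 1 rose with Combo and none fell (median 0.08), 9.09% beside 32.1% of all genes, against none risen and 4 fallen on the poly-A scale, where 46.9% of all genes were called. It was SAP30, a subunit of the complex, at 0.73 ± 0.12 (limma adjusted p = 0.00132) and at 0.58 ± 0.12 with CPI203 (limma adjusted p = 0.0126), a call lost without each line. On the poly-A scale its Combo change was 0.25. The scaffold genes SIN3A and SIN3B had changes of 0.22 each, HDAC1 0.15 and HDAC2 -0.26 with Combo, and none of these 4 passed.

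Of 8 tested PRC1.6 partners of MGA 3 fell, 1 rose and 4 did not pass with Combo (median -0.25), beside 32.1% of all genes called. With poly-A scaling 6 fell and 1 rose, beside 46.9% of all genes called. L3MBTL2, a defining subunit, stood at 7.28, 6.63 and 7.59 in OCI-HBL1, OCI-LY10 and OCI-LY3 with Combo, against 8.64, 9.06 and 9.18 in Control. It fell by 1.79 (SE 0.19, limma adjusted p = 0.000228), and by 0.88 with CPI203 (SE 0.19, limma adjusted p = 0.0172), the second call lost without each line. PCGF6, the Polycomb ring finger subunit of this complex, fell by 0.79 (SE 0.15) and CBX3 by 0.51 (SE 0.10), calls that were lost without OCI-LY10 (adjusted p = 0.062) for PCGF6 and without OCI-LY3 (0.0739) for CBX3. RYBP, a subunit shared with other Polycomb complexes, rose by 1.62 ± 0.13 (limma adjusted p = 8.58e-05), and by 0.84 ± 0.13 with CPI203, called without OCI-HBL1 (0.0327) but not without OCI-LY3 (0.0935) or OCI-LY10 (0.055).

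Of 14 tested genes for the turnover of MYC protein 5 rose, 1 fell and 8 did not pass with Combo (median 0.08), so 42.9% were called beside 32.1% of all genes. With poly-A scaling 6 fell and none rose, beside 46.9% of all genes called. The number called was 2 when OCI-LY3, 4 when OCI-HBL1 and 3 when OCI-LY10 was removed. FBXW7, the ubiquitin ligase subunit that marks MYC for degradation, rose by 0.94 ± 0.14 (limma adjusted p = 0.00111). GSK3B, a kinase that phosphorylates MYC ahead of that step, rose by 0.90 ± 0.12 (limma adjusted p = 0.000625), and PPP2R5A, a phosphatase subunit, by 0.61 ± 0.14 (limma adjusted p = 0.0094). The other 2 that rose, USP37 and STUB1, were lost without each line and had changes below 0 on the poly-A scale. SKP2, another ubiquitin ligase subunit, fell by 0.66 (SE 0.12, limma adjusted p = 0.00257). With Combo FBXW7 and GSK3B were called without each line, and on the poly-A scale their changes were 0.46 and 0.42. PPP2R5A was not called with OCI-LY3 (adjusted p = 0.123) or OCI-LY10 (0.0937) removed, and SKP2 was lost without OCI-LY3 (0.0627). With CPI203 FBXW7 stood at 0.68 ± 0.14 (limma adjusted p = 0.0163) and GSK3B at 0.48 ± 0.12 (limma adjusted p = 0.0311), of which FBXW7 was lost without each line and GSK3B without OCI-LY3 (0.266) or OCI-LY10 (0.219). The arrays measure RNA, and MYC protein was not measured here, so the counts over this list give no direction of its turnover.

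The other MYC genes and the MLX branch gave no call in any of the 6 comparisons, with 5 of 6 genes tested and the sixth, ARRDC4, below the filter. With poly-A scaling 2 of the 5 fell with Combo, beside 43% of all genes called lower on that scale. MYCN averaged 4.26 with Combo against 4.32 in Control, near the filter level. MYCL stood at 5.51 with Combo against 5.33 in Control in OCI-LY3, and was below the filter level in the other lines. MLXIP, the MondoA partner of MLX, had a change of -0.06 ± 0.10 with Combo. TXNIP, a known target of MLXIP and MLX, had changes of 0.43 ± 0.40 with Combo (limma adjusted p = 0.45), 1.19 with CPI203 (0.0795) and -0.83 with IRAKi (0.362). The lines differed with Combo, at 1.07 in OCI-LY3, 1.32 in OCI-LY10 and -1.09 in OCI-HBL1. Without OCI-HBL1 TXNIP was called higher with Combo, at 1.19 (adjusted p = 0.00545), and with CPI203, at 1.45 (adjusted p = 0.0156). That omission was singled out after the values were seen. TXNIP was not called without OCI-LY3 (adjusted p = 0.908 with Combo and 0.354 with CPI203) or without OCI-LY10 (0.993 and 0.259).

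**Figure D5:**
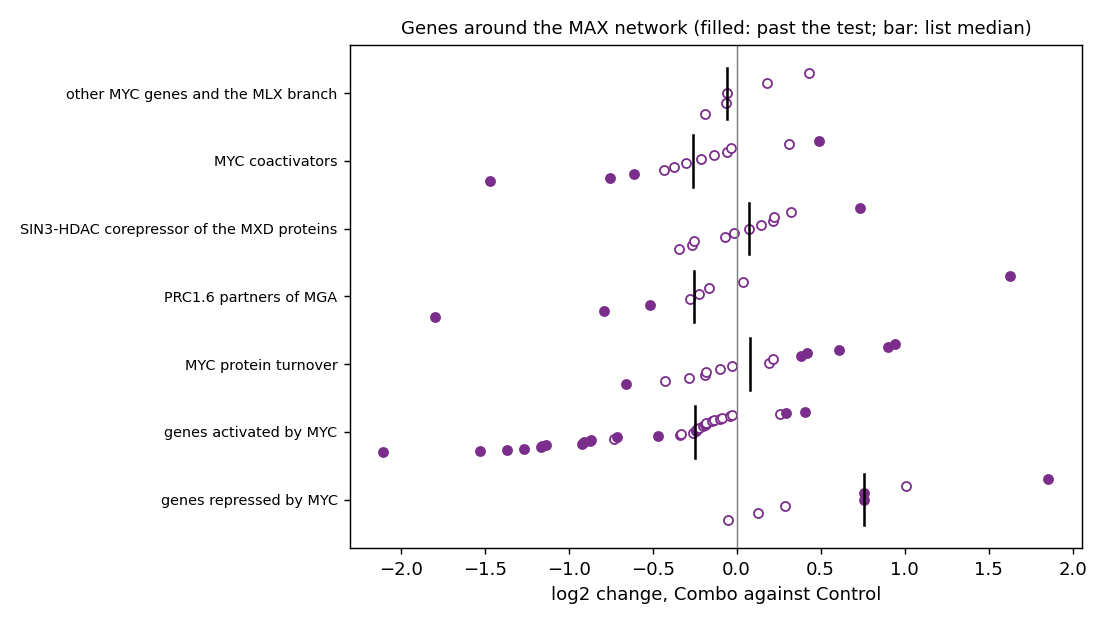
Log2 change in Combo against Control (x axis) of each tested gene in 7 lists around the network (y axis), filled where past the test, with a bar at each list's median. The median of the genes activated by MYC lies at -0.25, beside -0.26 for the MYC coactivators and -0.25 for the PRC1.6 partners of MGA. That of the genes repressed by MYC lies at 0.76, and single genes such as L3MBTL2 and RYBP stand far apart within a list.

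The genes whose pattern was most like that of each called member were found by Pearson's r over 12 arrays after removal of each line's mean. These arrays share treatments and controls, so r is a description. For MYC they were EXOSC7, a subunit of the RNA exosome (r = 0.99), ECE2, a metalloprotease gene (0.98), and RPF2, a ribosome production factor (0.98). For MXD1 they were CNEP1R1 (0.99), GMNN, which encodes the replication licensing inhibitor geminin (0.98), and ZNF596 (0.98). For MLX they were SLC38A7, an amino acid transporter gene (0.96), SCAF8 (0.96) and ZNF346 (0.95). For MXD3 they were ZFYVE1 (0.97), USP8 (0.96) and SPDYE2 (0.96), for MXI1 TSGA10 (0.96), PGAP1 (0.96) and REL, an NF-kB subunit gene (0.95), and for MXD4 RDH11 (0.95), AGO3 (0.94) and SLAIN1 (0.93).

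Of the 7 B cell markers 2 fell with Combo, so 28.6% were called beside 32.1% of all genes, of which 16.7% were called lower. With Combo CD79B changed by -1.39 ± 0.21 (limma adjusted p = 0.00116) and MS4A1 by -0.60 ± 0.12 (limma adjusted p = 0.00547), the second lost without OCI-LY3 (0.0739) or OCI-LY10 (0.0602), while CD79A, PAX5, CD22, IRF4 and BCL6 did not pass, and none of 6 tested markers of other cell types was called. With CPI203 MS4A1 changed by -0.75 (limma adjusted p = 0.00678), called without OCI-HBL1 (0.0421) but not without OCI-LY3 (0.0827) or OCI-LY10 (0.0732). PECAM1, listed here among the markers of other cell types, changed by -1.03 with CPI203 (limma adjusted p = 0.0303), a call lost without each line. The summed linear signal of the 7 B cell markers was 9873 to 12593 with Combo, 9644 to 14281 with CPI203 and 13144 to 19392 in Control. That of the 11 markers of other types was 182 to 348 with Combo, 191 to 264 with CPI203 and 174 to 431 in Control. In bulk RNA a change in the mix of cells and a change in RNA per cell cannot be told apart, and the part of either in the values above was not tested.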

How the data were processed

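RNA of 3 cell lines under 4 treatments, 150 ng per sample, was read on 12 Affymetrix arrays. The log2 values deposited by the authors come from RMA, run with Affymetrix Expression Console 1.1, per the submitters' processing notes. No source used here states the probe library or genome build. Of 49386 probe sets, the 45253 with 1 gene in the platform annotation were used. Symbols were updated by gene ID (99.82% matched RefSeq). Each gene took its probe set with the highest mean, and was tested if above the 40th percentile (4.20) on at least 3 arrays. All 12 arrays were fitted with limma 3.58.1 (R 4.3.3, data.table, version 1.17.8) with treatment and line as terms, two-sided, with Benjamini-Hochberg adjustment over 13120 genes. The residual degrees of freedom were 6 and the prior 3.66, and the test was checked on simulated data. Same-line arrays correlated at 0.82 to 0.91 in their deviations from group means, so the line is a block. The precision is limited by the number of arrays. Promoters came from RefSeq (GRCh38.p14). The members and lists were chosen with earlier results of these data known. Named list genes are up to 3 called per direction with the largest Combo change, and other named list genes were chosen after their values were seen. Some list genes were not analysed here. The alternatives are a gene's mean, every probe set, other filters, median centring, cyclic loess, poly-A scaling, trend and robust estimation, no or a random block, only the groups compared, and arrays left out. Figures used Python 3.11.15 with matplotlib 3.10.9 and pandas 2.3.3.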

Additional observations from a re-analysis of the deposited data

Results flagged for a closer look

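MXD1 moved in opposite directions between lines with IRAKi, by 1.57 in OCI-LY3 and -0.57 in OCI-LY10 relative to each line's Control array. With Combo, MXI1 stood at 1.12 in OCI-LY10 and -0.14 in OCI-HBL1 relative to Control. Each value is 1 array against 1 array, and the difference between lines was not tested.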

How the results depend on the processing

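Over 15 alternatives MYC was lower in Combo than in Control, between -2.08 and -1.31, and called in 14. With no replicate block, so that the pairing by line is ignored, its adjusted p was 0.0549 (change -1.598), and it was 0.924 in Combo against CPI203 (-1.03) and 0.253 in Combo against IRAKi (-1.24). That fit called 1, 0, 0 and 0 members in Combo against Control, Combo against CPI203, Combo against IRAKi and CPI203 against Control, where the fit with the line as a term called 5, 1, 3 and 1. It called 465 genes in Combo against Control, 4 in CPI203 against Control, 0 in IRAKi against Control, 2 in Combo against CPI203 and 7 in Combo against IRAKi, where the fit with the line called 4214, 1723, 22, 612 and 2456. With only the groups compared these were 2163, 1194, 0, 198 and 977. For IRAKi against Control the fit with the line had 2018 genes at an unadjusted p below 0.05, and it called 0 genes without any 1 line or without the OCI-LY10 IRAKi array, 11 with a random block, 13 with the mean of probe sets, 14 with every probe set, 66 with a filter at the 60th percentile and 220 with trend and robust estimation. Without the OCI-LY10 IRAKi array Combo against IRAKi had 1487 genes, and with trend and robust estimation Combo against CPI203 had 954. Without a line the counts were 2072 to 3420 in Combo against Control, 216 to 720 in CPI203 against Control, 0 to 3 in Combo against CPI203 and 526 to 1704 in Combo against IRAKi. A fit of only the groups compared called 3 members in Combo against Control and 2 in CPI203 against Control. It called 0 in Combo against CPI203, with MYC at -1.03 (adjusted p = 0.0703), and 1 in Combo against IRAKi. The cause was not tested, though fits of only the groups compared use fewer arrays. Without a line, members called ranged from 3 to 4 in Combo against Control, 0 to 3 against IRAKi, and were 0 in Combo against CPI203 and in CPI203 against Control. MYC then ranged from -1.34 to -0.87 in Combo against CPI203 and from -1.54 to -1.03 in Combo against IRAKi. In CPI203 against Control 0 members were called with every probe set tested, with no filter and with a random replicate block, 2 without the OCI-LY10 IRAKi array, and 3 with a filter at the 60th percentile, median centring, or trend and robust estimation. Averaging the probe sets of each gene called 2 members in Combo against CPI203. Poly-A scaling called 3 members in Combo against Control and 2 in CPI203 against Control, where MYC passed at -0.88 (adjusted p = 0.0396).

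The changes that reversed sign had not passed the test. On the poly-A scale MAX stood at -0.23 with Combo, -0.22 with CPI203 and -0.072 with IRAKi against Control, at -0.0083 in Combo against CPI203 and -0.15 against IRAKi. MGA stood at -0.42, -0.16 and -0.076 with Combo, CPI203 and IRAKi, and with Combo MXD4 at -0.074 and MNT at -0.13. With IRAKi MXI1 stood at -0.041 and MLX at -0.091. With the mean of probe sets MGA stood at -0.38 with Combo (adjusted p = 0.0469) and -0.014 with CPI203. MAX then stood at -0.053 and MLX at -0.038 with IRAKi, MAX at -0.0057 in Combo against CPI203, and MXD4 at 0.070 with IRAKi and 0.077 in Combo against CPI203. For the departure from the sum, MXI1 was at -0.13, MXD4 at 0.0064 and MXD3 at 0.065 with that mean, and MAX at -0.033 with median centring and -0.019 without the OCI-LY10 IRAKi array. Without a line, MAX ranged from -0.034 to 0.21 with CPI203, -0.028 to 0.18 in Combo against IRAKi and -0.12 to 0.19 for the departure, MGA from -0.056 to 0.18 with Combo and -0.16 to 0.015 in Combo against IRAKi, MXD1 from -0.061 to 1.01 with IRAKi and -0.12 to 0.97 for the departure, and MXD3 from -0.61 to 0.29 for the departure. No alternative for the departure used only the groups compared, since it uses all 4.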
